A study of Mus musculus with 31 samples.

Results

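Gene expression in epididymal white adipose tissue (eWAT) was compared between mice held at 4 °C for 4 days and mice held at 4 °C for 2 days. The comparison took the 3 libraries labelled day 4 (eWAT548, eWAT551 and eWAT553) and the 3 labelled day 2 (eWAT532, eWAT538 and eWAT539), 6 of the 31 RNA-seq libraries in the series. All came from male C57BL/6J mice aged 8 weeks, with no transgene named, and every group had first spent 8 days at thermoneutrality, the ambient temperature at which a mouse needs no extra heat production. The 3 eWAT libraries of mice killed without cold (day 0: eWAT516, eWAT517 and eWAT518) entered the same fit, and inguinal white adipose tissue (iWAT, 3 libraries at day 2 and 5 at day 4, same strain and cold) served as the other white depot. The labels do not say that each library of a depot came from a separate mouse, so p-values measure the spread between these libraries.

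Epididymal fat is a visceral depot attached to the epididymis, the duct in which sperm mature. Its adipocytes store triglyceride, and between them lie fibroblast-like progenitors that build collagen matrix and can become adipocytes, resident macrophages that clear debris and lipid, vessels, nerves and a mesothelial coat. Cold raises sympathetic drive to fat, which increases lipolysis, and of the white depots the inguinal one is known for gaining heat-producing beige cells while the epididymal one gains few.

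No feature (1 RefSeq transcript accession) passed the threshold between day 4 and day 2. Of 10043 features tested with edgeR's quasi-likelihood test and Benjamini-Hochberg adjustment, 0 had an adjusted p under 0.05 (background 0%), and the smallest adjusted p was 0.823. At an unadjusted p under 0.05 there were 230 higher (2.29%) and 206 lower (2.05%) at day 4. DESeq2 called 1 and limma voom 0. The 1 was Sost, with 148, 32 and 1 reads at day 2, and 0 in every day 4 library; eWAT516 of day 0 held more reads of it than any of these. With library size alone in place of TMM scaling the split of unadjusted p-values was 198 higher and 268 lower. Single libraries moved these numbers more: without eWAT539 there were 1000 higher and 644 lower, and without eWAT538 or eWAT551 there were 118 higher, with 88 and 104 lower. Of 87 genes whose day 4 against day 2 difference was refitted with 1 library left out at a time, 31 moved by over 1.5 times in at least 1 fit. The levels below are therefore descriptions of 6 libraries, and a gene is called higher or lower only where its 3 day 4 libraries all lay on 1 side of its 3 day 2 libraries. That held for 378 features upward (3.76%) and 416 downward (4.14%), and the median log2 difference of all features was -0.007. The smallest p that an exact permutation test of 3 against 3 libraries allows is 0.1.

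Levels are given as CPM (counts scaled to a common library total) with TMM scaling, and differences as log2 of day 4 over day 2. Total counts ran from 3.19 to 4.03 M in the 9 eWAT libraries. Adipocyte transcripts were abundant, as the tissue label implies: Adipoq, the adipokine adiponectin, stood at 997 to 9035 CPM at day 2 and 3174 to 8713 at day 4, while Ucp1, the uncoupling protein of heat-producing adipocytes, stayed under 50 CPM in all 6. The tables count each accession separately, and some genes known to be abundant in fat hold almost no reads: Dcn, the matrix proteoglycan decorin, had 1 read in eWAT532 and 0 in the other 8 libraries. A low row is thus not shown to be a low gene.

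Libraries stood apart within groups in 2 ways. A library score, the position of a library on the axis along which replicates of the other 2 tissues spread, was 46.3 and 59.8 in eWAT532 and eWAT538 of day 2 and 44 in eWAT518 of day 0, but between -39.1 and 3.4 in the other 6, day 4 included. The first axis of the spread within eWAT itself carried 53.5% of its within-group variance. The share along the score axis was not computed. Since no day 4 library scored high, score and day are partly confounded. Summed markers of epididymis and testis were 39114 CPM in eWAT532, 25588 in eWAT551 and 23203 in eWAT516, and at most 2866 in the other 6. Those libraries held different epididymal genes: Akr1b7 reached 30506 CPM of the plain total in eWAT532 and 3.74 in eWAT551, whereas the defensin Defb20 reached 11014 in eWAT551 and 3.26 in eWAT532. Their part in the differences below was not tested beyond refitting without them.

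**Figure D1:**
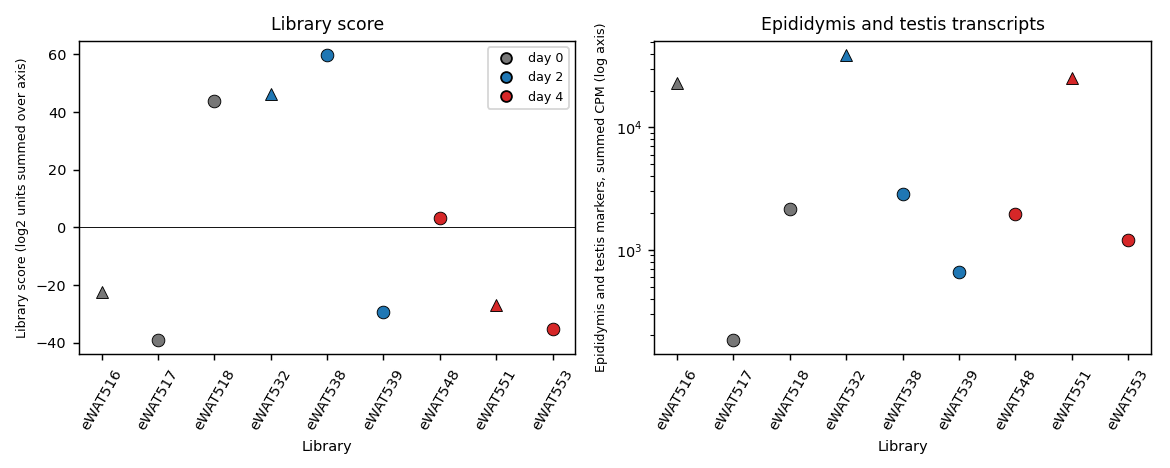
Library score (left, log2 units along the within-group axis of the other 2 tissues) and summed CPM of the epididymis and testis markers (right, log axis) for the 9 eWAT libraries, coloured by day, with triangles for the 3 libraries richest in those markers. The scores of eWAT532 and eWAT538 at day 2 were 46.3 and 59.8, above every day 4 library.

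Most tested macrophage markers had higher values at day 4 than at day 2, though none passed the threshold. Of 17 list members, 12 were tested, 10 had a positive difference, 6 were higher (C1qa, C1qb, C1qc, Folr2, Adgre1 and Aif1) and 0 were lower, with a median log2 difference of 1.1 against -0.007 over all features and a background of 3.76% higher. The summed level of the list ran from 201 to 497 CPM at day 2 and from 509 to 1067 at day 4, and at day 0 from 233 to 496. Day 2 and day 0 thus overlapped, and day 4 lay above both. In RNA of whole tissue, more cells of a type and more RNA per cell cannot be told apart.

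C1qa, C1qb and C1qc encode the chains of complement C1q, which resident macrophages secrete, and lie side by side on chromosome 4 (C1qb 136880126 to 136886200, C1qc 136889801 to 136892936, C1qa 136895916 to 136898844, GRCm38). C1qa stood at 15.4, 33.6 and 32.8 CPM in eWAT532, eWAT538 and eWAT539, and at 203, 72.7 and 115 in eWAT548, eWAT551 and eWAT553. C1qb stood at 21.5, 47.9 and 56.2 at day 2 and at 266, 140.4 and 142 at day 4. In both genes the lowest day 4 library exceeded the highest day 2 library, and eWAT548 was highest. The log2 differences were 2.25 (SE 0.51) for C1qa and 2.13 (SE 0.51) for C1qb, each with an edgeR adjusted p of 0.823. C1qc was read less, at 2.91, 4.24 and 7.33 CPM at day 2 and 13.8, 8.86 and 9.14 at day 4. At day 0 C1qa had been at 25, 31.9 and 48.1 CPM, in the range of day 2.

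Of the surface receptors in the macrophage list, Folr2 and Adgre1 separated the days, while Csf1r, Mrc1, Lyve1 and Fcgr1 overlapped. Folr2, a folate receptor of tissue-resident macrophages, stood at 11.3, 28 and 18.2 CPM at day 2 and at 64.7, 74.6 and 57 at day 4 (log2 difference 1.77, SE 0.53). Adgre1, which encodes the macrophage antigen F4/80, stood at 4.94, 15 and 11.9 and then at 49.7, 23.6 and 28 (1.67, SE 0.59). For Aif1, a cytoskeletal protein of macrophages, the values were 19.5, 12.4 and 29.8 and then 71.6, 45.1 and 32.4, so that the closest libraries were nearly level. Csf1r, the receptor of the macrophage growth factor, had a difference of 0.66 (SE 0.63), which was 0.30 without eWAT532 and 1.58 without eWAT538. The mannose receptor Mrc1 had one of 0.63 (SE 0.56), which was 0.29 and 1.15 in the same fits. Lyz2, lysozyme, had a difference of -1.43 but at most 59 reads in any eWAT library. Mpeg1, the other negative member of the list, overlapped at -0.056, with a mean of 40.9 CPM over the eWAT libraries. Ccr2, the chemokine receptor of monocytes, was higher at day 4, at 69.3, 29.3 and 47.1 CPM against 6.68, 10.8 and 27.9. So were Lrrc25, a myeloid membrane protein, at 27.5, 16.1 and 17.7 against 3.2, 8.15 and 6.24, and C3ar1, the receptor for complement fragment C3a (1.07, SE 0.61, but 0.59 without eWAT532).

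Without the libraries that stood apart, some macrophage differences were of similar size and others were smaller. Leaving out the high-score libraries eWAT518, eWAT532 and eWAT538, which leaves eWAT539 alone at day 2, gave a list median of 1.45 and 10 higher members against a background of 23%. Without the epididymis-rich libraries eWAT516, eWAT532 and eWAT551 the median was 0.986, with 8 higher members against 13.7%. Leaving out 1 eWAT library gave list medians from 0.763 (without eWAT532) to 1.55 (without eWAT539), and 0.904 without eWAT548. There were 8 higher members without eWAT538 (background 6.32%) and 8 without eWAT551 (7.19%). There were 7 without eWAT539 (19.9%), and 6 without eWAT532 (8.02%), eWAT548 (6.77%) or eWAT553 (8.39%). C1qa was at 2.04 without the high-score libraries, 2.31 without the epididymis-rich ones and 2.40 with the library score as a covariate. Leaving out 1 library at a time gave 1.78 (without eWAT548) to 2.54 (without eWAT551). Folr2 and Adgre1 were at 1.90 and 1.55 without the high-score libraries. In that fit, however, C1qc was at 0.58 in place of 1.13, Aif1 at 0.79 in place of 1.27 and Lyve1, a hyaluronan receptor, at 0.51 in place of 1.07. Of the genes outside the list, Ccr2 was at 0.85 in place of 1.68 and C3ar1 at 0.63 in place of 1.07.

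Markers of lipid-associated macrophages, which take up lipid from dying adipocytes, overlapped between the days. Of 14 list members 9 were tested, and Lgals3, Spp1, Lipa and Cd63 had no row. Of the 9, 6 were positive and 0 were higher or lower, with a median of 0.06. The tested Lpl and Fabp5 are also on the list of triglyceride synthesis and lipid uptake, so the list is not specific to these macrophages. Trem2, their defining receptor, stood at 3.78, 4.89 and 2.98 CPM at day 2 and 6.12, 4.83 and 2.49 at day 4. The chemokine Ccl2, which draws in monocytes, overlapped as well (3.49, 29 and 16 against 23.2, 2.95 and 10.8). Ccl8, another monocyte chemokine, reached 137 CPM in eWAT548 but 18.5 and 11.6 in the other day 4 libraries, and the acute-phase protein Saa3 reached 215 in eWAT548 against 29 and 51.5. Both of these rest on eWAT548: without it Ccl8 was at 0.70 in place of 2.59 and Saa3 at 0.97 in place of 2.26. The mast cell protease Cma1 was at 32.1, 8.59 and 33.2 CPM at day 4 and 4.07, 4.56 and 9.22 at day 2, overlapping through eWAT551. Among 5 tested mast cell and eosinophil markers 0 were higher or lower, with 4 positive and 1 negative. Siglech, a receptor of plasmacytoid dendritic cells, had 0, 1 and 3 reads at day 2 and 19, 17 and 14 at day 4. Siglech was the 1 higher member of 8 tested dendritic cell markers, against a background of 3.76% higher. Within that list 6 were positive, 2 negative and 0 lower. The B cell gene Cd79a overlapped, at 4.36, 10.8 and 32.6 CPM and then 13, 4.56 and 16.9. Among 5 tested B and plasma cell markers 0 were higher or lower, with 1 positive and 4 negative.

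**Figure D2:**
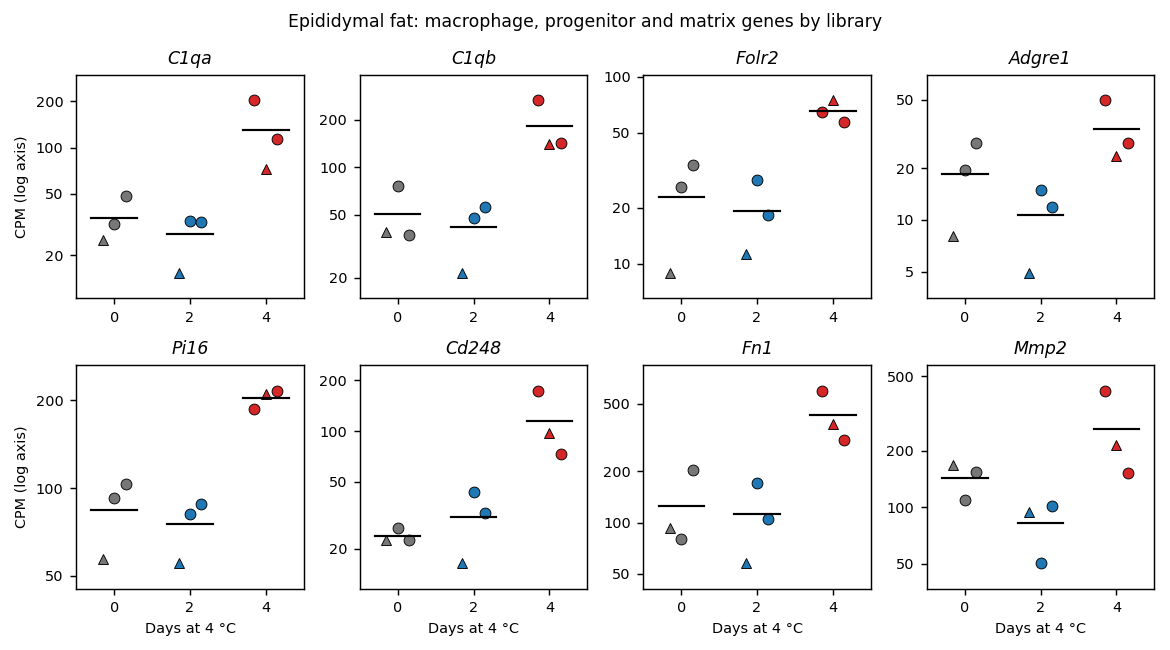
CPM (log axis) of 4 macrophage genes (top) and 4 progenitor or matrix genes (bottom) in each eWAT library at days 0, 2 and 4, with bars at the group means and triangles for the libraries richest in epididymis transcripts. In all 8 panels the day 4 libraries lie above the day 2 libraries, and in C1qa from 72.7 to 203 CPM against 15.4 to 33.6.

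Most progenitor and fibroblast markers also had positive differences, and 4 separated the days. Of 19 list members 14 were tested and 11 were positive. Against a background of 3.76% higher, 4 were higher (Pi16, Gsn, Mfap5 and Clec3b) and 0 lower, with a median of 1.01. The summed level of the list was 1187 to 2454 CPM at day 2 and 2553 to 3690 at day 4, again with no overlap. With library size alone, or with only the 2 groups fitted, 2 members were higher. The count was 10 without the high-score libraries (background 23%), 9 without the epididymis-rich ones (13.7%), 7 without eWAT539 (19.9%) and 6 without eWAT532, eWAT538, eWAT551 or eWAT553 (6.32% to 8.39%).

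Pi16 marks the interstitial progenitors of fat. It stood at 55.5, 81.8 and 88.2 CPM at day 2 and 187, 209.9 and 216 at day 4, a log2 difference of 1.44 (SE 0.36, edgeR adjusted p 0.823). Day 0 lay with day 2, at 57, 92.5 and 103 CPM. Cd248, endosialin, a surface protein of stromal and perivascular cells on no fixed list, stood at 16.6, 43.7 and 32.6 and then at 174, 98 and 72.8 (1.89, SE 0.47). It was also the 1 higher feature that DESeq2 called for day 4 against day 0 (adjusted p 0.0404, with 101, 114 and 79 reads at day 0 and 683, 365 and 263 at day 4). Gsn, the actin-severing protein gelsolin, went from 4.07, 17.6 and 35.8 to 86.4, 55.6 and 112 CPM between the groups. Mfap5, a microfibril protein, was at 79.9, 238 and 156 against 275, 239.9 and 430.3, where the nearest libraries all but touched. Dpp4, another progenitor marker, overlapped (0.44, SE 0.61). Sfrp4, a secreted Wnt inhibitor of adipose stroma, was higher, at 21.7, 26 and 9.97 CPM against 2.04, 3.91 and 7.33.

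Some matrix genes were higher at day 4 and others overlapped, against a background of 3.76% higher and 4.14% lower. Fn1, fibronectin, stood at 58.1, 172 and 105 CPM at day 2 and at 598, 379 and 304 at day 4 (1.93, SE 0.55). Among 23 tested matrix glycoproteins and crosslinkers 4 were higher, namely Fn1, the small proteoglycan Bgn, the crosslinker Loxl1 and the tenascin Tnxb, and 0 lower (median 0.571). Tnxb was at 1.04, but at 0.62 without eWAT532 and 0.43 without the high-score libraries. Among 17 proteases and inhibitors, 3 collagen-degrading enzymes were higher and 1 member, Adamts5, was lower (-1.10), with a list median of 0.225. Mmp2, gelatinase A, was at 93.6, 50.5 and 101 CPM and then at 418, 215 and 152 (1.68, SE 0.48). Mmp14, the membrane protease that activates pro-Mmp2, was at 13.1, 14 and 27.9 and then 48.9, 53.9 and 48.2 (1.45, SE 0.43). Ctsk, cathepsin K, was the third, at 1.56 (2.89 without eWAT539 and 0.48 without the high-score libraries). Of 16 collagens, 3 were higher (Col1a2, Col14a1 and Col16a1) with a median of 0.269. Col1a1 had a difference of 1.65 (SE 1.00) with overlap and Col3a1 one of -0.21 (SE 0.68). These 2 depended on the libraries used. Without eWAT539 Col1a1 was at 3.58, and without the high-score libraries Col1a1 was at 0.39 and Col3a1 at 0.51.

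**Figure D3:**
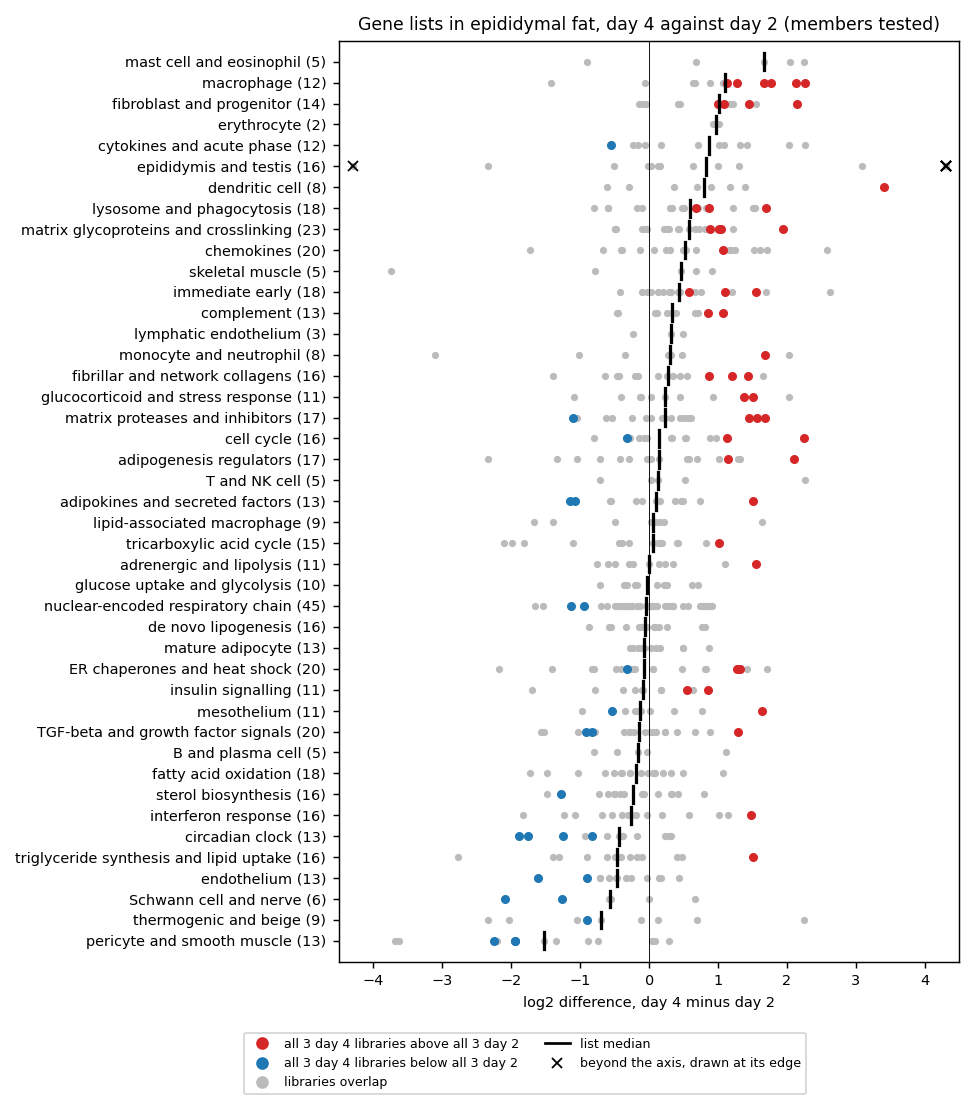
Log2 difference of day 4 minus day 2 for every tested member of the 43 gene lists (number tested in brackets), with red for members whose 3 day 4 libraries all exceed day 2, blue for the reverse, and black bars for list medians; crosses at the axis edge lie beyond it. The macrophage median is 1.1 and that of pericyte and smooth muscle -1.52.

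Vascular and contractile markers were mostly negative, and the background was 4.14% lower. Of 13 tested endothelial markers 10 were negative and 2 lower (median -0.473): Kdr, the main VEGF receptor, and Tie1, an endothelial receptor kinase. Tie1 stood at 133, 108 and 100.1 CPM at day 2 and 86.1, 47.5 and 49.3 at day 4 (-0.90, SE 0.49). Of 13 pericyte and smooth muscle markers 10 were negative and 3 lower (median -1.52), including Myl9, a myosin light chain, at 1692, 502 and 324 against 186, 217 and 251. Its highest value was in eWAT532, which is also rich in transcripts of the epididymis, a duct with a muscular wall. The epididymis-rich eWAT551 stood at 217 CPM. The difference of Myl9 was -0.92 without eWAT532 and -0.88 without the epididymis-rich libraries, in place of -1.95. It was -0.52 without the high-score libraries, a set that also holds eWAT532. Cspg4, a pericyte proteoglycan, likewise went from -2.26 to -1.09 without the epididymis-rich libraries and to -1.11 without the high-score ones. The part of the duct or of the library score in these values was not tested further.

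Some clock transcripts were lower at day 4. Of 13 tested clock genes 4 were lower, namely Per2, Dbp, Ciart and Clock, and 0 higher, with a median of -0.432 and a background of 4.14% lower. Per2, a repressor in the clock's feedback loop, stood at 45.9, 39.4 and 28.5 CPM at day 2 and at 11, 17.7 and 19.4 at day 4 (-1.24, SE 0.38). Dbp, a clock-driven transcription factor, was at 2.91, 6.19 and 4.07 and then 1.27, 0.537 and 1.66 (-1.89, SE 0.61), and Ciart, a repressor of the clock's activators, at 9.59, 4.24 and 10 and then 1.02, 2.42 and 3.6 (-1.76, SE 0.62). Dbp and Ciart were read at low depth. Nr1d1, the most abundant member, overlapped, with a difference of -0.18. The labels give no time of day for tissue collection, so hour and day in the cold cannot be told apart. Without the high-score libraries Per2 was at -0.78.

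The start regions of 4 genes whose rows separate the days are shown as examples. They are RefSeq windows of GRCm38.p6 from 250 bases before to 50 after the start, with capitals marking a motif on either strand. Of 7 such genes looked up, 5 had a window, and that of Clock is not shown. For Ciart (chr3:95882179-95882478, minus strand) and Dbp (chr7:45704997-45705296, plus strand) the motif is CACGTG, the E-box that the clock's activators bind. For C1qb (chr4:136886151-136886450, minus) and C1qc (chr4:136892865-136893164, minus) it is GAGGAA, the core bound by the myeloid factor PU.1.
Ciart: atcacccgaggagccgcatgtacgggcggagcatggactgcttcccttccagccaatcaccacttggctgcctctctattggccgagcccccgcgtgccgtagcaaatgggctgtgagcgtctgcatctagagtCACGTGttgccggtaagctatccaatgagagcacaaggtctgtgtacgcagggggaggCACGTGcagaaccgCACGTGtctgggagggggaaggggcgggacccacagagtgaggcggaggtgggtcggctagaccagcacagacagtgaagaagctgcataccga
Dbp: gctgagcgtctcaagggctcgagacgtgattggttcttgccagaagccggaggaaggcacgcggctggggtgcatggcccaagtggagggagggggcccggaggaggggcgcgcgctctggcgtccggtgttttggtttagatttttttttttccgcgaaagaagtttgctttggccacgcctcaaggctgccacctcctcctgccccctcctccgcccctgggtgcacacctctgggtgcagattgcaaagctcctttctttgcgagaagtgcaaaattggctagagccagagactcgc
C1qb: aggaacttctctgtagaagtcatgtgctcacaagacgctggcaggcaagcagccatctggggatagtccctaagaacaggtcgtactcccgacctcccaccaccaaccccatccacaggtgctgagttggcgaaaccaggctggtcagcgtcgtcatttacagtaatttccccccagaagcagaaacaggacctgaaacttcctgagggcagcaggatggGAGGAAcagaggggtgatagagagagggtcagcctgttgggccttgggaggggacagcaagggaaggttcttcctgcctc
C1qc: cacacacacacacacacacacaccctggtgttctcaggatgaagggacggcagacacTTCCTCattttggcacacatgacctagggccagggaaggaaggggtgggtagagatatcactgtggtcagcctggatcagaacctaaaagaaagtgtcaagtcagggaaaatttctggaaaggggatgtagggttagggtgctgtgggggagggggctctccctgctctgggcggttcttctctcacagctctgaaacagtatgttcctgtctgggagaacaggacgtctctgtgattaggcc
Ciart held 3 E-boxes and Dbp 0. Of 32851 such windows 7.15% held at least 1 and 0.0883% held 3 or more. C1qb and C1qc held 1 GAGGAA each, as did 28.3% of windows at least once, so this match is common. These matches are descriptions of letters and say nothing of binding in these samples.

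The other features with the smallest p in the lower direction included Coq7, an enzyme of ubiquinone synthesis (45.3, 54.1 and 29.3 CPM at day 2 and 10.4, 10.7 and 20.5 at day 4), Tbrg4, a mitochondrial RNA-binding protein, and Sema3f, a secreted guidance cue (47.7, 41.4 and 43.7 against 19.6, 20.7 and 24.4). Tbrg4 was at -2.32 (SE 0.64) but at -0.84 without the high-score libraries. Sema3f was tight in both groups, with a difference of -1.04 (SE 0.32). Upward, Apobr, a lipoprotein receptor of macrophages, stood at 10.5, 5.87 and 12.2 CPM and then at 44.3, 81.1 and 15.8, and Dpep1, a membrane dipeptidase, at 82.8, 78.2 and 112 and then 394, 207 and 179.

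Genes that separated day 2 from day 0 were followed to day 4. In that earlier comparison 0 of 10043 features passed the edgeR threshold (0%; 50 higher and 56 lower at an unadjusted p under 0.05, 0 by DESeq2 and by voom). Without eWAT518 of day 0 those unadjusted numbers were 588 higher and 101 lower, and without eWAT539 of day 2 they were 129 and 541, so both their size and their balance changed with single libraries. In all, 236 (2.35%) of features were higher and 245 (2.44%) lower without overlap. At those unadjusted p-values the backgrounds were 0.498% and 0.558%. Day 4 against day 0 also had 0 features past the threshold (0%) and, at an unadjusted p under 0.05, 1.57% higher and 1.18% lower, with 4.82% higher and 4.38% lower without overlap. Day 2 libraries enter both the first and the second interval, so a day 2 library that is high by itself lifts the first difference and lowers the second; the values are therefore given at all 3 days and no agreement between comparisons is counted.

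Some lipid synthesis genes had higher values at day 2 than at day 0, and their day 4 values overlapped those of day 2. Of 16 tested members of de novo lipogenesis, 5 were higher at day 2 than at day 0 (background 2.35%). Between day 2 and day 4, 0 were higher or lower (median -0.058). Fasn, fatty acid synthase, stood at 617, 2769.7 and 2285 CPM at day 0, 4123, 7168 and 4234 at day 2 and 3557, 1890.0 and 5178 at day 4. Scd1, the desaturase, stood at 4275, 17157 and 17733, then 23979, 38015 and 29057, then 26236, 12328 and 33693. In both, day 4 overlapped day 2 and day 0, and eWAT551 was the lowest day 4 library. Thrsp, a lipogenic nuclear protein, was at most 1347 CPM at day 0 and stood at 2059, 2733 and 2615 at day 2, and its day 4 values of 3193, 1426 and 2466 all exceeded day 0. eWAT551 and eWAT516, the lowest of days 4 and 0 for Fasn, are both rich in epididymis transcripts.

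Other genes that were higher at day 2 than at day 0 were lower at day 4 than at day 2. Angptl8, a feeding-induced inhibitor of lipoprotein lipase, stood at 4.95, 14.1 and 8.54 CPM at day 0, 57, 33.9 and 36.1 at day 2 and 22.4, 5.37 and 27.4 at day 4. Day 2 lay above both other days, with log2 differences of 2.20 (SE 0.63) over day 0 and -1.20 (SE 0.61) for day 4 over day 2, the latter -0.76 without eWAT551 and -0.45 without the epididymis-rich libraries. Chchd10, a mitochondrial protein of the cristae, was at 663, 737 and 922, then 1530.1, 2084 and 2083, then 1435, 698 and 1491. Only eWAT551 lay in its day 0 range, and its day 4 over day 2 difference of -0.65 was -0.37 without that library. Idi1, an isomerase of sterol synthesis, was at 33.3, 21.1 and 50.1, then 91.3, 67.1 and 54.5, then 33.6, 23.4 and 30.5, back in the day 0 range. Timm8b, a mitochondrial import chaperone, was at 135, 113 and 136, then 248, 248 and 198, then 173, 144 and 153, between both.

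Among genes lower at day 2 than at day 0, some were also low at day 4. Dio3os, a noncoding RNA beside the gene for a thyroid hormone deiodinase, was at 17.3, 15.5 and 14 CPM at day 0, 2.91, 6.84 and 3.8 at day 2 and 8.15, 6.17 and 4.43 at day 4. C6, a terminal complement component, was at 36.5, 63.9 and 109.9, then 14.8, 35.5 and 19.5, then 16.6, 14.5 and 19.4. The day 4 libraries of these 2 genes stayed below all day 0 libraries. Serpina3b, a serine protease inhibitor, went from 16, 22.3 and 37.6 to 4.07, 12.1 and 2.98 and then 2.29, 1.34 and 4.71, and DESeq2 called it for day 4 against day 0 (adjusted p 0.0413).

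Other genes that were low at day 2 had values nearer to day 0 at day 4. Grb14, an adaptor that inhibits the insulin receptor, stood at 42.3, 43.1 and 36.5 CPM at day 0, 17.4, 14.3 and 11.7 at day 2 and 33.4, 19.1 and 25.8 at day 4. Day 4 lay between the other days, with a difference over day 2 of 0.85 (SE 0.36). Sult1e1, an oestrogen sulfotransferase, was at 135, 171 and 190.3, then 62.5, 67.8 and 62.7, then 209, 67.4 and 232, with only eWAT551 left at the day 2 level.

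Most immediate early genes had positive differences from day 2 to day 4, and few separated the days. Of 18 tested immediate early genes 15 were positive and 3 higher between day 2 and day 4 (median 0.434, background 3.76% higher). From day 0 to day 2 their median was -0.662 with 2 lower (background 2.44%). Egr1, a zinc finger factor of that class, stood at 182, 347 and 86.9 CPM at day 0, 58.7, 14 and 86.0 at day 2 and 66, 125 and 323 at day 4. Its day 2 libraries lay below day 0 but overlapped day 4, and the later difference of 1.69 was 0.85 without eWAT553. Nr4a1, an orphan nuclear receptor of the class, was at 4.73, 9.14 and 5.41, then 1.74, 2.28 and 2.17, then 2.29, 7.51 and 8.58, so that day 2 lay below both other days but all but touched day 4. These genes also respond to tissue handling, whose part was not tested. Mt2, a metal-binding protein induced by glucocorticoids, was at 861, 862 and 874, then 688, 498 and 712, then 2506, 1359 and 1059.8, above both earlier days. Angptl4, a fasting-induced inhibitor of lipoprotein lipase, was at 223, 69.1 and 241 at day 2 and 685, 371 and 468 at day 4, overlapping its day 0 range of 198 to 658.

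**Figure D4:**
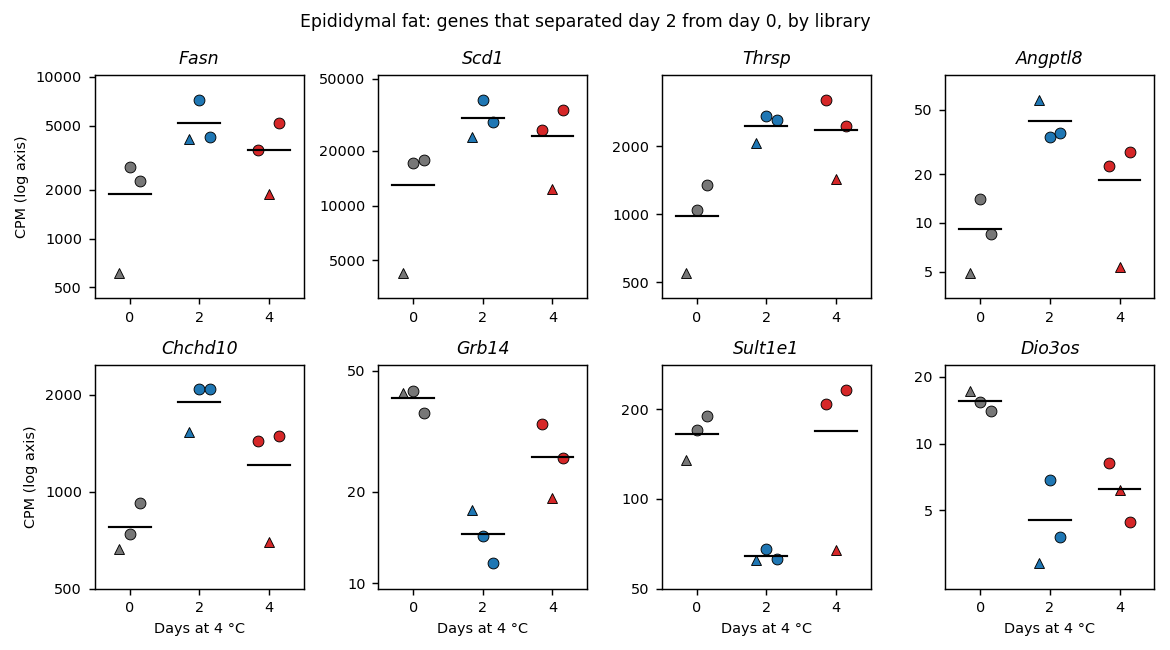
CPM (log axis) by library at days 0, 2 and 4 for 5 genes that were higher and 3 that were lower at day 2 than at day 0, drawn as in the plot of macrophage and matrix genes. At day 4 Angptl8 and Chchd10 lie below day 2, Thrsp and Dio3os lie apart from day 0, and Grb14 lies between both days.

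Thermogenic and adipocyte genes mostly overlapped between the days, against a background of 3.76% higher and 4.14% lower. Of 9 tested thermogenic genes 0 were higher and 1 was lower, Ppargc1b, a coactivator of mitochondrial genes (-0.90, SE 0.54). Ucp1 stood at 2.04, 11.7 and 1.08 CPM at day 2 and 20.4, 0.537 and 49 at day 4, a difference of 2.24 with an SE of 1.28. That value was 1.10 without eWAT553, 3.88 without eWAT538 and 4.42 without the high-score libraries. Of 13 mature adipocyte markers 0 separated the days (median -0.07). Of 45 nuclear genes of the respiratory chain 0 were higher and 2 lower (median -0.048), near the share of all features that were lower. The adipokine leptin, Lep, was at 212, 88.3 and 265 and then 196, 61.5 and 271. Slc2a4, the insulin-responsive glucose transporter, and the proliferation marker Mki67 overlapped, with differences of -0.21 (SE 0.74) and 0.31 (SE 0.54). A p that misses the threshold does not show that these levels were equal.

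The 2 white depots were compared in 1 fit of 21 libraries. The difference between the eWAT and iWAT changes was past an adjusted p of 0.05 for 0 of 10793 features by edgeR (0%), for 0 by limma voom and for 16 by DESeq2, most of them sperm or epididymis genes. At an unadjusted p under 0.05 there were 1069 (9.9%), 311 with the larger log2 difference in eWAT and 758 in iWAT. This balance changed between fits: limma voom gave 705 and 328, the fit without eWAT539 gave 1057 and 1212, and the fit without eWAT532 and eWAT538 gave 86 and 65. The macrophage list had a median of 1.098 in eWAT and -0.206 in iWAT, and 5 of 12 members had an unadjusted p under 0.05 for the difference. In iWAT those 12 members summed to 163 to 552 CPM of the plain total at day 2 and 156 to 760 at day 4. The 5 tested B and plasma cell markers summed to 2130 to 2750 at day 2 and 621 to 3180 at day 4. Immune transcripts thus spread widely between iWAT libraries of day 4. Markers of other tissue had positive differences in iWAT. All 16 epididymis and testis markers tested were positive there (median 5.396), as were 10 of 11 mesothelium markers (2.397). The summed epididymis and testis markers were 5.79 to 43.8 CPM of the plain total at day 2 and 1.25 to 6400 at day 4. There iWAT555 held the highest value and the median was 9.38. None of the 16 was at 0 in all 8 libraries. The summed mesothelium markers were 3.47 to 5.22 CPM at day 2 and 2.66 to 95.5 at day 4, where the median was 4.41. The highest value was again in iWAT555. The part of these immune, epididymis, testis and mesothelium transcripts in the depot differences was not tested beyond leaving out 1 library at a time. Without iWAT555 there were 594 and 913 unadjusted p-values under 0.05 by edgeR. C1qb went from 63.3 ± 28.8 to 40.4 ± 26.1 CPM in iWAT (SD, n = 3 and 5), and its eWAT change exceeded the iWAT change by 2.77 (SE 0.78, edgeR adjusted p 0.474), or by 3.12 without iWAT555.

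Among the matrix proteases and inhibitors, the eWAT change exceeded the iWAT change by 2.01 (SE 0.61) for Mmp2 and 1.90 (SE 0.57) for Mmp14. Over the 17 tested members of that list the median difference was 0.256. An unadjusted edgeR p under 0.05 was found for 4 of them, against 9.9% of all features. Progenitor markers had medians of 1.012 in eWAT and -0.021 in iWAT. In iWAT 1.38% of features were higher and 2.34% lower without overlap. Cd248 was higher at day 4 in both depots (1.89 in eWAT and 1.62 in iWAT, with no overlap in either), and the difference of its changes was 0.27 (SE 0.74), with -0.13 without eWAT548 and 0.64 without eWAT538. The clock list had medians of -0.433 in eWAT and -0.003 in iWAT, and for Per2 the changes differed by -2.15 (SE 0.82, edgeR adjusted p 0.474).

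**Figure D5:**
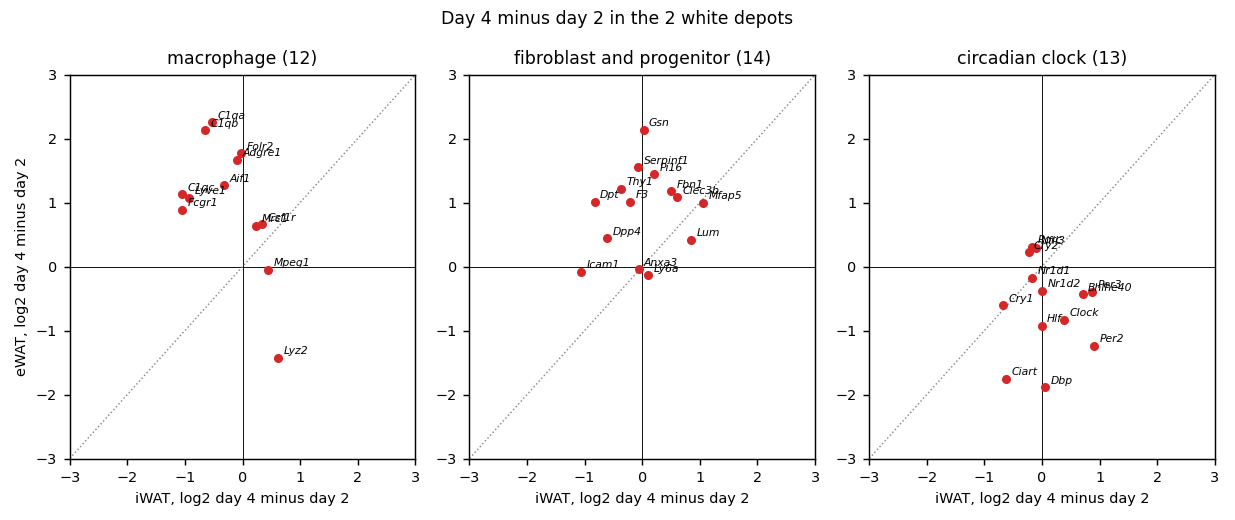
Log2 difference of day 4 minus day 2 in eWAT (vertical) against iWAT (horizontal) for tested members of the macrophage, progenitor and clock lists, with the dotted line marking equal change. Of the macrophage members C1qa, C1qb, Folr2 and Adgre1 lie above 1.6 in eWAT and below 0 in iWAT.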

How the data were processed

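The authors deposited 1 table of raw counts per RefSeq transcript accession and tissue. The submitters' processing notes name cutadapt, BWA and build mm10; versions, the counting step and strand use are not given in the sources used here, so overlapping or antisense genes cannot be told apart. Missing values were read as 0. For the 9 eWAT libraries edgeR 4.0.16 (R 4.3.3) was run on these counts: filterByExpr (minimum count 10, minimum total 15), TMM, robust quasi-likelihood tests with 1 mean per day, Benjamini-Hochberg adjustment and a threshold of 0.05. Standard errors are the log2 difference over the root of F. List sums and the epididymis genes use CPM of plain totals. The library score was taken over 7938 genes (prior count 2). Accessions took symbols from RefSeq (15859 of 16132) or GENCODE M21 (97). Chi-square per degree of freedom between replicates was 53.6 to 129.8, so none was a repeat. Counts cover reads, not molecules. DESeq2 1.42.0 and limma 3.58.1 voom were alternatives. The edgeR test was also run on simulated counts with a common dispersion, where libraries differed only in total and in planted day 4 changes. That setting holds no library score axis and no epididymis-rich library, so it cannot show how the test behaves with them.

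The comparison, its members, the 43 gene lists (17 of cell types, 26 of programmes), the 20 fixed genes (15 tested) and the rules were chosen with earlier results of these data known. The rule named the fixed genes, the 10 smallest p in each direction with at least 5 CPM and no overlap, up to 3 members of each list with the smallest p and its most abundant one, the same 10 for day 2 against day 0, and for depots the 5 largest past the threshold, of which there were none. The other list members, Sost, and the examples within these sets were chosen after their values were seen.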

Additional observations from a re-analysis of the deposited data

How the results depend on the processing

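No feature passed the edgeR threshold under RLE factors, library size alone, no low-count filter, counts per symbol, only the compared groups, the score covariate, or without any library or set of libraries tried, nor with limma voom. DESeq2 called 1 feature for day 4 against day 2, 5 for day 4 against day 0 and 16 for the difference between depots; the cause was not tested. The 1 feature, Sost, rests on 2 libraries of day 2.

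No paired analysis was possible because label numbers are never shared between days of eWAT. For the depot difference, a fit with the label number as a replicate block gave 0 features. Same-numbered libraries of the depots correlated between -0.366 and 0.366. Replicates also spread in other ways, so these values cannot show whether a shared number marks the same mouse. The main fit of both depots left the libraries unpaired.

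Unadjusted p-values under 0.05 for day 4 against day 2 numbered 230 higher and 206 lower, but 315 and 71 with the score covariate, 238 and 132 with limma voom, 109 and 46 without the high-score libraries, and 69 and 30 without the epididymis-rich libraries (a choice made after seeing the data). Leaving out 1 library gave from 118 and 88 (without eWAT538) to 1000 and 644 (without eWAT539). For day 2 against day 0 it gave 588 and 101 without eWAT518 and 129 and 541 without eWAT539, against 50 and 56. For day 4 against day 0 it gave 95 and 96 without eWAT516 and 191 and 56 without eWAT548, against 158 and 119. For the depot difference the replicate block gave 739 and 476, against 311 and 758. Within eWAT, the genes below whose direction turned between day 4 and day 2 all had overlapping days. With the score covariate, Col3a1 became 0.56, Slc2a4 0.11 and Thrsp 0.10. Without the high-score libraries Col3a1 became 0.51 and Adipoq -0.56. Without the epididymis-rich ones Dpp4 became -0.091, Lep 0.44, Slc2a4 0.87, Mki67 -0.21 and Thrsp 0.13. Leaving out 1 library gave -1.23 to 0.34 for Ccl2, -0.92 to 0.61 for Cd79a, -0.85 to 0.45 for Col3a1, -0.11 to 0.78 for Dpp4, -0.54 to 0.31 for Lep, -0.76 to 0.49 for Slc2a4, -0.34 to 0.2 for Thrsp, -0.076 to 0.501 for Trem2, and -0.13 to 0.64 for the depot difference of Cd248, a gene whose days did not overlap in either depot. Groups of 3 libraries with a biological coefficient of variation of 0.583 limit the precision; the part of depth was not tested.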
